A study of Mus musculus with 30 samples.

Results

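The replication-dependent histone genes are the multicopy genes that supply the bulk of the histone protein packed onto newly copied DNA. They were taken from an RNA-seq table of 8-cell mouse embryos as the rows whose symbol names a gene of the Hist1, Hist2, Hist3 or Hist4 cluster and of type H1, H2A, H2B, H3 or H4. Pseudogene symbols were left out, as were Hist1h2aa and Hist1h2ba, a pair known for expression in testis and oocyte. This gave 67 genes among 49585 rows, made up of 6 H1, 19 H2A, 17 H2B, 12 H3 and 13 H4 genes. The comparison was between embryos given a control knockdown and embryos in which Yy1, which encodes the DNA-binding zinc finger protein YY1, was knocked down with the siRNA that the labels number 1. Both groups were BDF1 x BDF1 embryos at the 8-cell stage, grown in KSOM, a culture medium for preimplantation embryos. Each group held 2 libraries of total RNA, prepared by a SMART-Seq method that keeps the strand. The labels do not say whether the replicates were separate collections of embryos, or how many embryos went into each, so p-values reflect how far these few libraries differ, which can be technical. The other 26 of the 30 samples of the series were not analysed here.

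A nucleosome wraps DNA around an octamer of histones, in which H3 and H4 form a central tetramer and H2A and H2B join as dimers on either side, while the linker histone H1 sits where the DNA enters and leaves. Messages of replication-dependent histone genes are as a rule made during S phase. They lack introns and a poly(A) tail, and end in a stem-loop that is bound by SLBP and formed by cleavage with the U7 small nuclear ribonucleoprotein. Many of these genes stand in clusters, and their transcription and processing take place in the histone locus body, which NPAT organizes. In the cleaving embryo, histones laid down in the egg are supplemented and then replaced by the embryo's own messages.

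Depth, recovered from the steps between the FPKM values (fragments scaled by transcript length and library depth), was 29302489 to 34429515 fragments per library, and the histone genes took 0.854% to 1.18% of them. Yy1 stood at 77.7 and 71.2 FPKM in control replicates 1 and 2 and at 5.89 and 7.98 FPKM in the knockdown replicates. That is 0.0931 of the control mean, a log2 fold change of -3.26 (SE 0.19, limma adjusted p = 0.0556), which did not pass the threshold of 0.05. Of 12 markers of the 8-cell embryo, 11 had a mean of at least 1 FPKM, and Sox2 was below it. Among these markers the smallest p values were those of Zfp42, a relative of Yy1 (30.7 and 30.2 FPKM in the controls, 5.43 and 3.99 FPKM in the knockdown, limma adjusted p = 0.0928), and Klf4 (26.4 and 31.4 FPKM against 22.1 and 16.5 FPKM, limma adjusted p = 0.532). Of the markers of other sources, 1 of 8 for sperm (Odf2) and 2 of 12 for cumulus and granulosa cells (Amhr2 and Gja1) reached that level. None did of 6 for blood and 6 for embryonic fibroblasts. Gja1 was far above the filter, at 137 and 166 FPKM in the controls and 132 and 125 FPKM in the knockdown. Amhr2 was at 5.35 and 4.74 FPKM against 7.80 and 7.30 FPKM. Listed at 0 in all 4 libraries were 6 sperm, 3 cumulus and granulosa, 2 blood and 2 fibroblast markers. A single library stood apart for the histone genes. Control replicate 1 was the highest of the 4 libraries in 50 of 59 histone genes tested, against 18.9% of all rows tested, so the counts, medians and sums of the histone types are given with and without it.

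All 67 genes were found in the RefSeq annotation of GRCm38.p6, the assembly behind mm10. The Hist1 cluster held 54 of them, all on chromosome 13, in stretches of 19 genes (chr13:21715711-21837530), 5 genes (chr13:22035122-22043658) and 29 genes (chr13:23531044-23764412), with Hist1h2al apart at chr13:51200084-51203066. The 10 Hist2 genes lay at chr3:96219885-96270192, both Hist3 genes at chr11:58948911-58955192 and Hist4h4 at chr6:136803993-136804431. RefSeq lists Hist1h2al as a transcribed pseudogene and Hist1h2aj as a pseudogene.

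Promoter windows in the RefSeq table, which run from 250 bases before to 50 bases after the start of the gene, were available for 60 of the 67 genes. The windows below belong to genes on which the results turn, 1 or more of each histone type, and are written 5′ to 3′ on the strand of the gene (GRCm38.p6). Capitals mark 4 motifs looked for on both strands, with overlapping matches counted for each motif. The TATA box, which places the start of transcription, was searched as TATAAA and, for the other strand, as TTTATA. The CCAAT box, bound by NF-Y, was searched as CCAAT, which reads ATTGG on the other strand. The octamer, bound by OCT1 and other OCT factors, was searched as ATTTGCAT, which reads ATGCAAAT on the other strand. The YY1 motif was searched as CCATNTT, which on the other strand reads AANATGG. Hist1h2bm (chr13:21721794-21722093 on the plus strand) had the smallest p of all histone genes. Hist1h2bk (chr13:22035571-22035870 on the plus strand) is shown because its window also holds the start of Hist1h2ah, the histone gene with the highest level. Hist1h2bp (chr13:21787238-21787537 on the plus strand) shares its window with Hist1h2an, and the log2 fold changes of that pair had opposite signs. Hist1h3h (chr13:21717378-21717677 on the plus strand) carried a pair of YY1 motifs. Hist1h4d (chr13:23581318-23581617 on the plus strand) and Hist1h1a (chr13:23763418-23763717 on the plus strand) had the highest levels of their types.
Hist1h2bm: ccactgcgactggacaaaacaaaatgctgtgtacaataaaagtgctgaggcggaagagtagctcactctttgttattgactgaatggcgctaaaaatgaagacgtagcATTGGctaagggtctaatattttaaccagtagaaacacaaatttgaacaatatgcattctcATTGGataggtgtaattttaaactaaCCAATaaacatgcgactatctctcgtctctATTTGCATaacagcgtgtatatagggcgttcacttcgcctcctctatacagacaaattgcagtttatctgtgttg
Hist1h2bk: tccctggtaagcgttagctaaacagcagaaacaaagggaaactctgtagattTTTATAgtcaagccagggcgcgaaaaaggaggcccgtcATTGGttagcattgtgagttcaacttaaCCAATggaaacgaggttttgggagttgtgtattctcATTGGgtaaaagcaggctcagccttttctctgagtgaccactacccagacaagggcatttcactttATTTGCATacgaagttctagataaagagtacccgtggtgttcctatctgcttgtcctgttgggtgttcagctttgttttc
Hist1h2bp: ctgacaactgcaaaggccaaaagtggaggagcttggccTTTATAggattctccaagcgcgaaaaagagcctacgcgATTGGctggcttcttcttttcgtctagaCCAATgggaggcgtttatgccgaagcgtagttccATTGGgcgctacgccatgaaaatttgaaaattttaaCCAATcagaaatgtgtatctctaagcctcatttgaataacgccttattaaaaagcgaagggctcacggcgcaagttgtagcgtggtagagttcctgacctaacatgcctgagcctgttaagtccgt
Hist1h3h: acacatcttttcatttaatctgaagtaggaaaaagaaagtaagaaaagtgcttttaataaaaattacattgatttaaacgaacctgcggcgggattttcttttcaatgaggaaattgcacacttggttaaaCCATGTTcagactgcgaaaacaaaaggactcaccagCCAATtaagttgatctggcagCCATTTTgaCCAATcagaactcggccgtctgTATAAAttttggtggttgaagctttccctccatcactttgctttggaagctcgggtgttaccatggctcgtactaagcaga
Hist1h4d: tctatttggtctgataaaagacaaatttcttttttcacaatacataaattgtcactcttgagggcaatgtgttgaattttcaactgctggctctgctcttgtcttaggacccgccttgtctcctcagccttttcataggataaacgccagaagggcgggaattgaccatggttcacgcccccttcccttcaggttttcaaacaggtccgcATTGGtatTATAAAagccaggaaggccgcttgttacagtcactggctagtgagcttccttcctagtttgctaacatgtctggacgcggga
Hist1h1a: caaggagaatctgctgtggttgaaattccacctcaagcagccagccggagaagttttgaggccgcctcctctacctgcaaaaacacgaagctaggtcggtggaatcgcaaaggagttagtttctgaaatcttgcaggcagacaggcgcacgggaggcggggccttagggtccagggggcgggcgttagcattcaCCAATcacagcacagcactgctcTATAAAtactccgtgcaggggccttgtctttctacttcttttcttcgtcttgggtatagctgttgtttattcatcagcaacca

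CCAAT boxes and the letters of the TATA box were frequent in the windows of the histone genes. A CCAAT box stood in 51 of 60 windows (85%, against 37.9% of 27025 promoters in the RefSeq table). It was in every window of H1 (6), H2A (17), H2B (15) and H3 (10), but in 3 of 12 windows of H4 (25%), below the share among all promoters. The exact TATAAA letters stood in 33 of 60 windows (55%, against 14.2%). The octamer stood in 11 windows (18.3%, against 1.75%), of which 6 belonged to H2A and 5 to H2B genes. In the windows printed above it sits between the last CCAAT box and the start of Hist1h2bm and Hist1h2bk, where Hist1h3h, Hist1h4d and Hist1h1a have a TATA box. The YY1 motif stood in 11 of 60 windows (18.3%), close to the 16.3% among all promoters, and in Hist1h3h 2 copies began 119 and 62 bases before the start. These are matches of letters and show no binding. Windows of head-to-head neighbours share bases, so they are not independent.

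Histone messages were among the most abundant of these embryos. By mean FPKM over the 4 libraries, 5 histone genes were among the 100 highest of all rows and 41 among the 500 highest. A mean of at least 1 FPKM, the filter for the tests, was reached by 59 of the 67 genes: all 6 H1, 15 of 19 H2A, 15 of 17 H2B, 10 of 12 H3 and all 13 H4 genes. The highest was Hist1h2ah, an H2A gene, at 1389 and 1027 FPKM in the controls and 1023 and 1034 FPKM in the knockdown. Next in order of the mean were Hist1h2ai (949 FPKM), Hist1h2ao (783 FPKM), Hist1h2ap (759 FPKM) and Hist1h2bj (685 FPKM), and the libraries of each neighbour in this order overlapped. In each of H2B, H3 and H4 the highest members were Hist1h2bj, Hist1h3i (mean 238 FPKM) and Hist1h4d (574 FPKM), and among the linker histones it was Hist1h1a (548 FPKM). The 10 highest genes together held 37.6% to 40.8% of all histone FPKM.

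**Figure D1:**
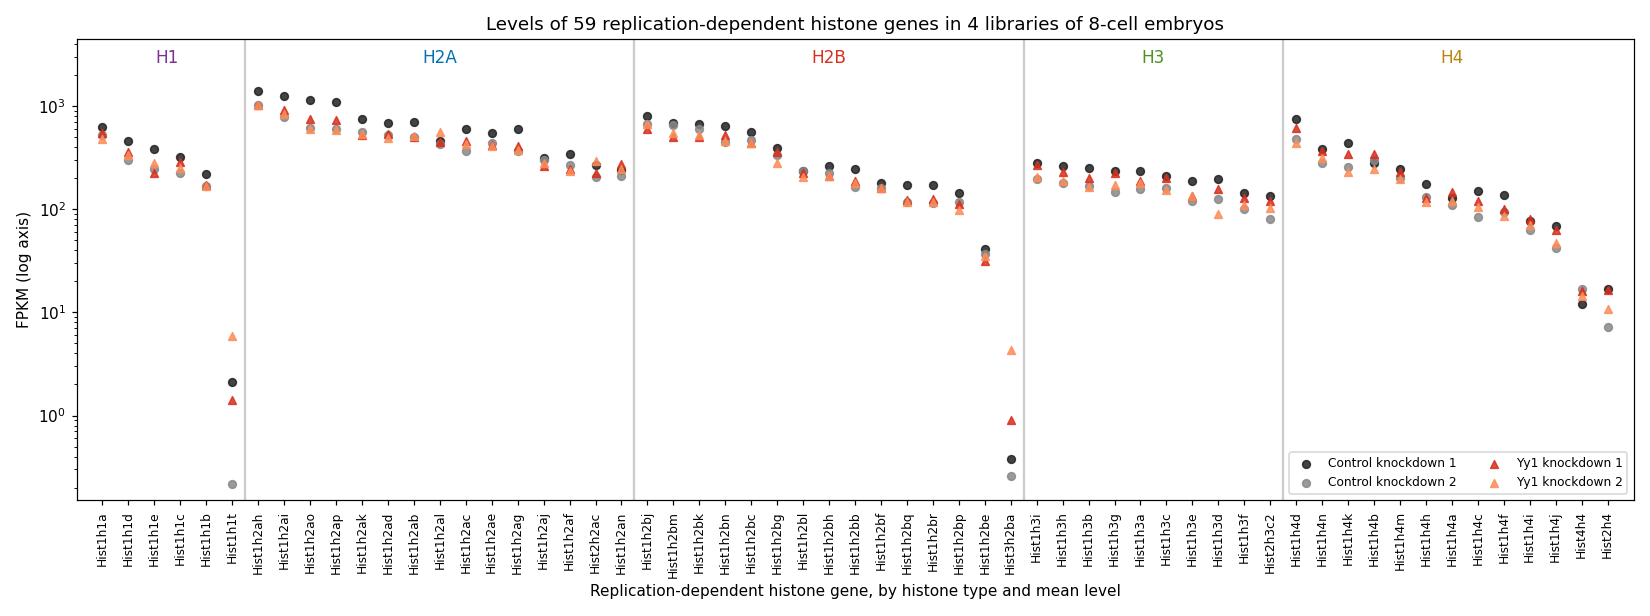
Level of each of the 59 histone genes tested, in FPKM on a log axis, in control (circles) and Yy1 knockdown libraries (triangles), ordered by mean level within each type. Control replicate 1 is the highest point for 50 of the 59 genes, and Hist1h2ah reaches 1389 FPKM in it.

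Summed over members, H2A messages were the most abundant per length and H3 and H1 messages the least. H2A took 43.4% to 46% of histone FPKM, H2B 22.9% to 26.4%, H4 12.1% to 14.4%, H3 8.65% to 10.4% and H1 8.86% to 9.23%. The core histones enter the nucleosome in equal numbers, but the sums of H2A were 1.65 to 1.99 times those of H2B in the 4 libraries, and the sums of H3 were 0.69 to 0.75 times those of H4. FPKM divide by counted length, recovered as 4374 bases for Hist1h2be and 2217 for Hist1h2bq, both H2B. It was 463 bases for Hist1h2bj, also H2B, and 405 for the H2A gene Hist1h2ah. The part of length in these sums was not tested. The makeup by type was close between the groups. H2A stood at 46% and 43.6% of histone FPKM in the controls and at 43.4% and 45.1% in the knockdown, and the shares of H2B, H3 and H4 likewise overlapped between the groups. The share of H1, at 8.86% in each control against 8.91% and 9.23%, did not overlap, by less than the difference between the knockdown libraries.

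The total of all histone genes was 22689 and 16551 FPKM in the controls and 17867 and 16527 FPKM in the knockdown, or 19620 ± 4339.8 against 17197 ± 947 (SD, n = 2 each). The knockdown mean was 0.876 of the control mean, and the difference was smaller than the spread between the controls. Without control replicate 1 the ratio was 1.04. H2B was the single type whose sums did not overlap between groups, at 5241 and 4369 FPKM in the controls against 4094 and 4052 FPKM in the knockdown (4805 ± 617 against 4073 ± 29.5, SD, n = 2 each). Its ratio was 0.848, and 0.932 without control replicate 1. H2A summed to 10431 and 7209 FPKM in the controls and to 7746 and 7448 FPKM in the knockdown, and here the second control was the lowest of the 4 libraries. With 2 libraries against 2, an exact two-sided permutation test of such a sum cannot give a p below 0.33. In RNA from whole embryos, fewer cells in S phase and less histone message per cell cannot be told apart.

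**Figure D2:**
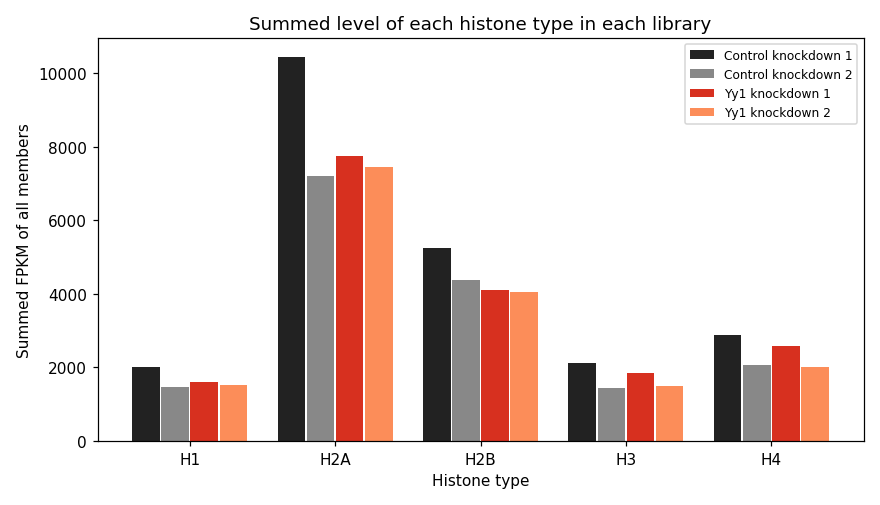
Summed FPKM of all members of each histone type (bars, 1 per library). In every type control replicate 1 is the highest bar, and in H2B both knockdown bars lie below both control bars.

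No histone gene passed the test of Yy1 knockdown against control. limma called 0 of 59 at an adjusted p under 0.05, and 0 of all 12120 rows (0%). At an unadjusted p under 0.05, 1 histone gene was lower, Hist1h2bm, where the share of all rows was 4.69%, and 0 were higher, where it was 4.22%. The count lower is not given with a library left out, since a group then holds a lone library. By the sign of the log2 fold change 45 of 59 were lower, against 46.8% of all rows, with a median of -0.15 against 0.02 over all rows. Both knockdown libraries lay below both controls in 14 of 59 genes, close to the share of all rows (18.9%), and above both in 2, where the share of all rows was 21.8%. The lower sign rested on 1 library. Without control replicate 1, 21 of 59 histone genes were lower and the median was 0.11, where 50.3% of all rows were lower. Without control replicate 2, 53 of 60 were lower, with a median of -0.36, where 44.3% of all rows were lower.

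**Figure D3:**
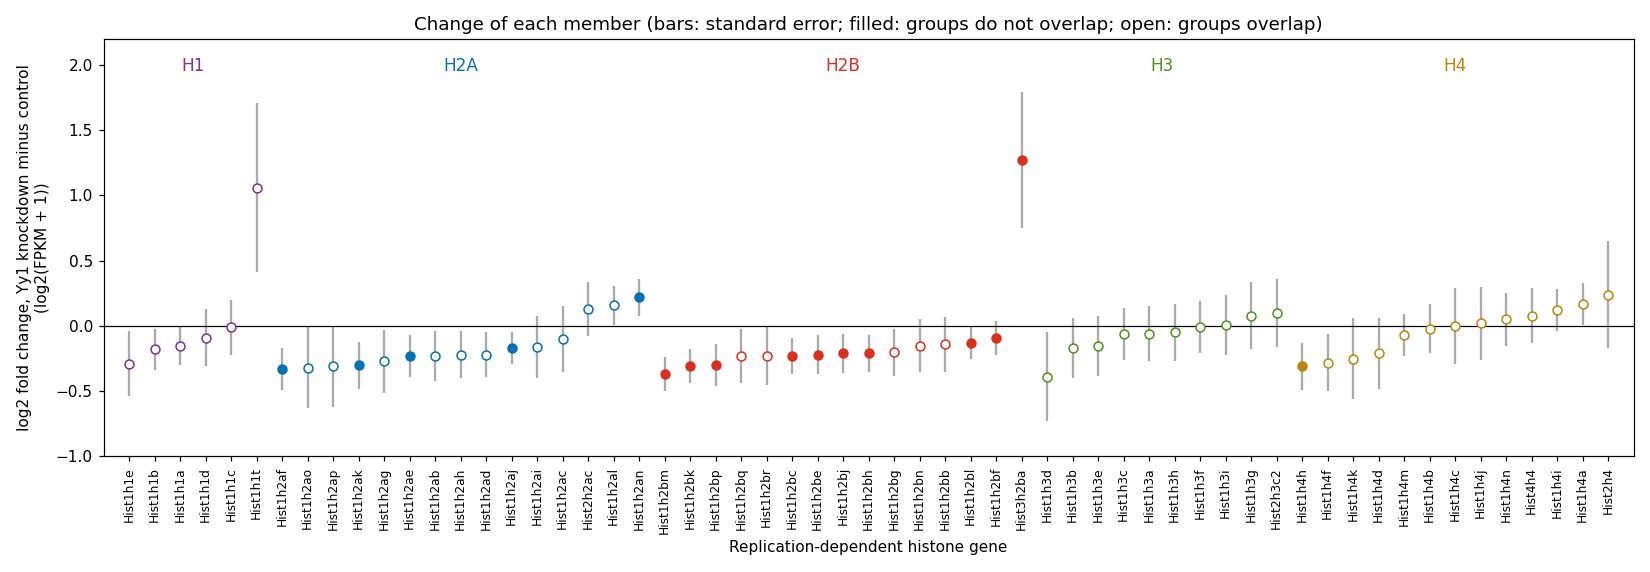
Log2 fold change of each of the 59 genes on the log2(FPKM + 1) scale, Yy1 knockdown minus control, with its standard error (bars). Filled points mark genes whose groups do not overlap, and 9 of the 14 filled points below zero are H2B genes, while over all rows 18.9% of groups lie apart below and 21.8% above.

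The types differed in how they stood with and without that library. The median log2 fold change was -0.12 for H1, -0.22 for H2A, -0.21 for H2B, -0.06 for H3 and -0.00 for H4. Without control replicate 1 it was 0.13 for H1, 0.07 for H2A, 0.22 for H3 and 0.13 for H4, while H2B stayed below zero at -0.08, with 10 of 15 genes lower. H3 and H4 also turned without knockdown replicate 2, with medians of 0.09 and 0.15 and with 3 of 10 and 2 of 13 genes lower. A difference between types was not tested, since members of a type share sequence and position. Other transcripts also stood highest in control replicate 1. The 13 mitochondrially encoded protein genes summed to 27929 FPKM there and to 21707 to 23953 FPKM in the other libraries, and both mitochondrial ribosomal RNAs to 48881 FPKM against 33217 to 35845 FPKM. Their part in the histone values was not tested.

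**Figure D4:**
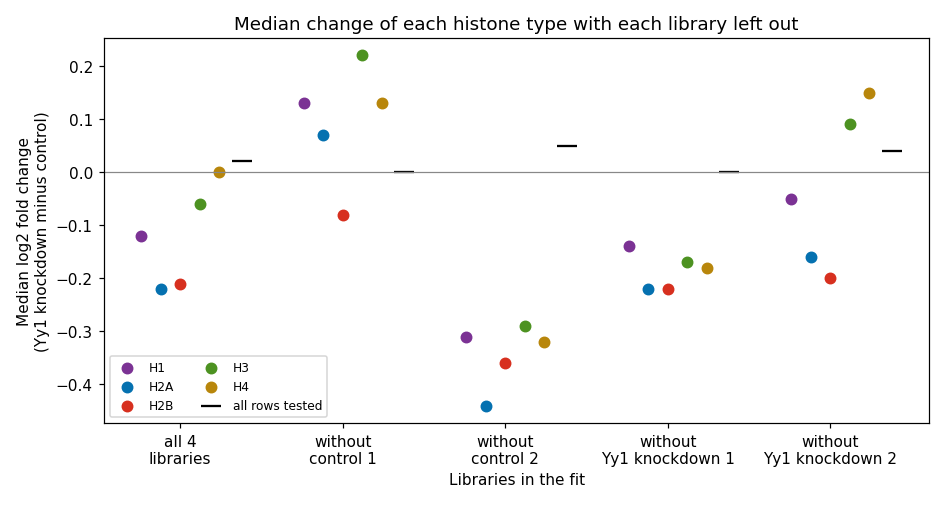
Median log2 fold change of each histone type with all 4 libraries and with each library left out in turn, beside the median of all rows tested (dashes). H2B lies below zero in all 5 fits, and the other types lie above zero without control replicate 1.

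Among H2B genes, 14 of 15 were lower in the knockdown, where 46.8% of all rows were, and in 9 (60%) both knockdown libraries lay below both controls, where 18.9% of all rows did. Control replicate 1 was the highest library in 14 of the 15. Set against control replicate 2 alone, both knockdown libraries were below it in 9 of 15 H2B genes, 4 of 15 H2A genes and 15 of 59 histone genes, where 36% of all rows were. Hist1h2bm was at 692 and 661 FPKM in the controls and at 499 and 549 FPKM in the knockdown, so the groups were apart by more than the spread within either. Its log2 fold change was -0.37 (SE 0.13, unadjusted p = 0.0308, limma adjusted p = 0.532), and -0.34 without control replicate 1. Hist1h2bk was at 677 and 602 FPKM against 498 and 529.9 FPKM (-0.31, SE 0.13, limma adjusted p = 0.577), again without overlap, and its log2 fold change was -0.23 without control replicate 1. Hist1h2bj, the most abundant H2B gene, was at 804 and 668 FPKM against 601 and 666 FPKM, and there the second library of each group was nearly level. Hist1h2bn overlapped, at 649.6 and 454 FPKM against 525 and 459 FPKM. The others with both knockdown libraries below both controls were Hist1h2bp, Hist1h2bc, Hist1h2be, Hist1h2bh, Hist1h2bl and Hist1h2bf, with log2 fold changes from -0.30 to -0.09. None of these passed the test after adjustment.

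Hist3h2ba, the H2B gene of the Hist3 cluster, was the exception among H2B genes. It stood at 0.378 and 0.259 FPKM in the controls and at 0.908 and 4.28 FPKM in the knockdown (log2 fold change 1.27, SE 0.52, limma adjusted p = 0.566). These values rest on 8, 5, 19 and 77 fragments. Its higher mean came mostly from knockdown replicate 2, and a gene this low passed the filter only through that library.

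H2A genes lay lower in 12 of 15 cases (46.8% of all rows). In 4 of them both knockdown libraries were below both controls, near the 18.9% of all rows. These 4 were Hist1h2af, Hist1h2ak, Hist1h2ae and Hist1h2aj, the last a pseudogene in RefSeq. Without control replicate 1, 5 of 15 had a log2 fold change below zero. Hist1h2af was at 347 and 268 FPKM in the controls and 247 and 236 FPKM in the knockdown (log2 fold change -0.33, SE 0.16, limma adjusted p = 0.617), and its log2 fold change was -0.15 without control replicate 1. Hist1h2ak was at 754 and 561 FPKM against 520.0 and 537 FPKM. Hist1h2ai, at 1251 and 777 FPKM against 919 and 847 FPKM, had both knockdown libraries between its controls. In Hist1h2an both knockdown libraries were higher, at 239.8 and 208 FPKM against 274 and 249 FPKM (log2 fold change 0.22, SE 0.14, limma adjusted p = 0.675), and it was the sole H2A gene with that order. Hist1h2al, the transcribed pseudogene, was at 464 and 431 FPKM against 449 and 557 FPKM.

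Pairs were sought among the 60 genes for which a strand was given. In 9 places among them an H2A and an H2B gene are transcribed away from each other. Their starts are 164 to 268 bases apart (median 180), so that the DNA between them serves as promoter for both. Genes without a strand, such as Hist1h2bc, Hist1h2aj and Hist2h2be, could not be paired, so further pairs may exist. With all 4 libraries, both genes of 8 of the 9 pairs were lower in the knockdown, where 46.8% of all single rows were. Each pair shares libraries and promoter bases. Without control replicate 1, 5 of 15 H2A genes were lower, so the count of 8 pairs does not hold without that library. With all 4 libraries the exception was Hist1h2an with Hist1h2bp, whose shared window is printed above. Hist1h2bp was at 144 and 117 FPKM in the controls and 112 and 98.8 FPKM in the knockdown (log2 fold change -0.30, SE 0.16, limma adjusted p = 0.632) while its neighbour was higher. The ratio of Hist1h2an to Hist1h2bp was therefore 1.67 and 1.78 in the controls against 2.46 and 2.52 in the knockdown. This pair was singled out after its values were seen, and the difference in ratio was not tested.

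A shared promoter did not mean equal FPKM. Over these 9 pairs the ratio of the H2A to the H2B gene ran from 0.556 for Hist1h2ag with Hist1h2bj to 6.64 for Hist1h2ao with Hist1h2bq. Within a pair the highest ratio over the 4 libraries was 1.2 to 1.61 times the lowest. Most of the spread in this ratio thus lay between pairs and not between libraries. FPKM divide by counted length, recovered as 2217 bases for Hist1h2bq and 480 bases for Hist1h2ao. In control replicate 1, where their FPKM ratio was 6.64, Hist1h2ao had 18991 fragments and Hist1h2bq 13210, so their fragments differed far less than their FPKM. Hist1h2ai and Hist1h2bl, at 393 and 381 bases, had 16933 and 3116 fragments there, so length did not make up that ratio. The part of length in the other ratios was not tested.

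**Figure D5:**
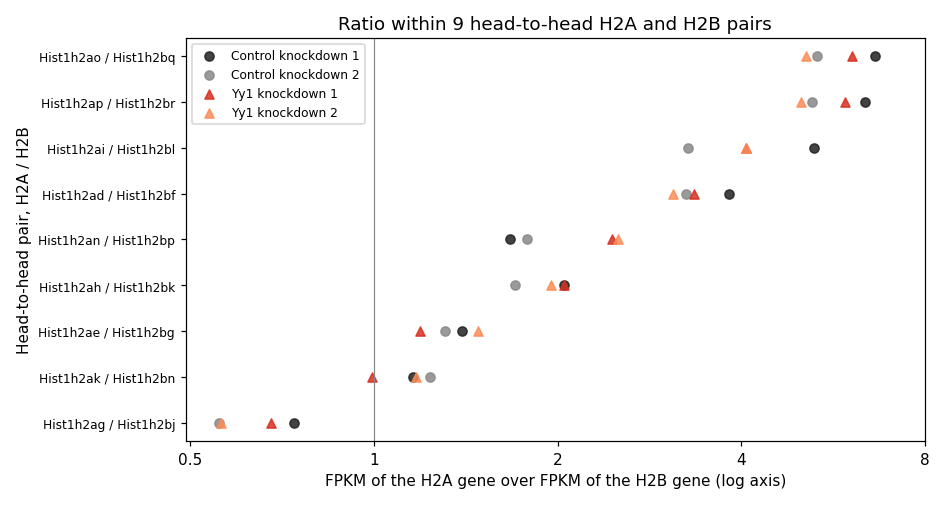
FPKM of the H2A gene over FPKM of the H2B gene (log axis) in each library for the 9 head-to-head pairs found among genes with a strand. The 4 points of a pair lie together while pairs differ from 0.556 to 6.64, and Hist1h2an over Hist1h2bp has both knockdown points above both controls.

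H3 and H4 genes followed the replicate number more than the knockdown. All 10 H3 genes were higher in replicate 1 than in replicate 2 of both groups, as were 11 of 13 H4 genes, against 27.3% of all rows tested. For H2A and H2B it was 9 of 15 each. H3 summed to 2130.3 and 1432 FPKM in the controls and to 1857 and 1501 FPKM in the knockdown, and H4 to 2875 and 2075 FPKM against 2578 and 2000.3 FPKM. Compared within a replicate number, H3 was 0.872 of the control in replicate 1 and 1.05 in replicate 2, and H4 was 0.896 and 0.964. The labels do not say that a number marks a shared collection of embryos. Some other RNAs without a poly(A) tail showed the same order, namely 6 of 10 tested, which were Rn7sk, Rmrp, Rn7s1, Rn7s2, Terc and Rny1. Their order was not seen in the FPKM summed over that list, where replicate 1 was 1.11 times replicate 2 in the controls and 0.999 times in the knockdown. Rn7sk, the 7SK RNA that holds back transcription elongation, was at 30244 and 24621 FPKM in the controls and 30197 and 26270 FPKM in the knockdown. Rpph1, Rny3, Rnu12 and Vaultrc5 did not have this order, and their part in the histone values was not tested.

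Of the H3 genes, Hist1h3i was at 279 and 196 FPKM in the controls and 270.5 and 206 FPKM in the knockdown, a log2 fold change of 0.01 (SE 0.23). Hist1h3d had the lowest log2 fold change of the type, -0.39 (SE 0.34, limma adjusted p = 0.756), from 197 and 125 FPKM against 159 and 89.8 FPKM. Its replicates differed more than its groups. Hist1h3h, whose printed window holds a pair of YY1 motifs, was at 261 and 180.0 FPKM in the controls and 231 and 189 FPKM in the knockdown (-0.05, SE 0.22, limma adjusted p = 0.958). The log2 fold changes of other H3 genes were -0.17 for Hist1h3b, -0.15 for Hist1h3e and 0.08 for Hist1h3g. In no H3 gene did the groups separate.

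Of the H4 genes, Hist1h4h alone had both knockdown libraries below both controls, at 177 and 132 FPKM against 129 and 117 FPKM (log2 fold change -0.31, SE 0.18, limma adjusted p = 0.656). Hist1h4d, the most abundant, was at 753 and 484 FPKM against 619 and 441 FPKM. Hist1h4k was at 435 and 257 FPKM against 342 and 230.1 FPKM, and Hist1h4b at 283 and 301 FPKM against 340 and 245 FPKM. Hist1h4n was at 387 and 281 FPKM against 371 and 313 FPKM. Hist1h4f was at 138 and 93.6 FPKM against 100.2 and 86.9 FPKM, and its log2 fold change of -0.28 (SE 0.22) was -0.0036 without control replicate 1. The H4 genes split 7 lower and 6 higher, with Hist1h4a (129 and 109.9 FPKM against 149 and 121 FPKM) among the higher.

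The linker histones are ranked by level as Hist1h1a, Hist1h1d, Hist1h1e, Hist1h1c and Hist1h1b, with Hist1h1t, the gene of the testis form, far below. Hist1h1a was at 622 and 532 FPKM in the controls and 552 and 485 FPKM in the knockdown (log2 fold change -0.15, SE 0.15, limma adjusted p = 0.785). Hist1h1e was at 387 and 244 FPKM against 224 and 281 FPKM, and Hist1h1c at 323 and 224 FPKM against 285 and 252 FPKM. In no H1 gene did the groups separate. Hist1h1t was listed at 2.11 and 0.218 FPKM against 1.41 and 5.85 FPKM, so both its controls and its knockdown libraries differed several-fold.

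Outside the Hist1 cluster 5 of 13 genes passed the filter. Of 10 Hist2 genes, Hist2h2ac, Hist2h3c2 and Hist2h4 passed the filter. Hist2h2ac was at 269.5 and 204 FPKM in the controls and 225 and 293 FPKM in the knockdown, in the range of the Hist1 genes. Hist2h3c2 was at 135 and 80.2 FPKM against 121 and 103 FPKM, and Hist2h4 at 17.0 and 7.21 FPKM against 16.6 and 10.8 FPKM. Hist2h2ab, at 0.307 to 1.72 FPKM, and Hist2h2be, at 0.0336 to 0.344 FPKM, did not pass. Hist2h2aa1, Hist2h2aa2, Hist2h3c1, Hist2h3b, Hist2h2bb and Hist3h2a were listed at 0 in all 4 libraries. Several of these are near copies of each other, and no source used here says how the authors counted reads that fit several copies, so a value of 0 here does not show that the gene is silent. Hist4h4 was at 12.1 and 17.0 FPKM against 16.1 and 14.4 FPKM, and it was the single gene tested for which control replicate 1 was the lowest library.

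The same limit holds within the Hist1 cluster. Hist1h2bq and Hist1h2br have promoter windows that are 100% identical, and their FPKM ratio was 0.996, 1.01, 0.997 and 1.01 in the 4 libraries. Their H2A neighbours Hist1h2ao and Hist1h2ap were also level with each other, at 1149 and 621 FPKM against 1111 and 602 FPKM in the controls. Such copies cannot be treated as separate measurements.

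Of the genes left out by the rule on symbols, Hist1h2aa was at 142 and 135 FPKM in the controls and 219 and 229 FPKM in the knockdown, with a log2 fold change of 0.69 (SE 0.12, unadjusted p = 0.00182, limma adjusted p = 0.433). Its groups did not overlap, and it did not pass after adjustment. Hist1h2ba was at 101 and 83.5 FPKM against 90.8 and 74.0 FPKM. Of 12 replication-independent histone variants, which are made throughout the cell cycle, 10 were tested. Of these 4 were lower, where 46.8% of all rows were, and 6 higher (median log2 fold change 0.01). Their summed level was 507 and 506 FPKM in the controls and 503 and 499.9 FPKM in the knockdown. This sum varied far less between libraries than the sums of the histone types above, which need not hold for single variants. H3f3a was at 51.5 and 34.8 FPKM in the controls and 50.4 and 34.3 FPKM in the knockdown. H2afz was more even, at 87.7 and 93.0 FPKM against 90.5 and 90.8 FPKM. The smallest p values were those of H2afx, the variant phosphorylated at DNA breaks (126 and 119.9 FPKM against 114 and 99.1 FPKM), and H2afj (39.4 and 29.7 FPKM against 28.0 and 29.4 FPKM).

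No gene that acts in making or processing histone messages passed the test. Of 30 listed, 27 were tested, and 0 were called. By sign 8 were lower and 19 higher (median log2 fold change 0.12), where 46.8% of all rows were lower (median 0.02). Slbp, the stem-loop binding protein, was at 15.2 and 16.6 FPKM in the controls and 18.4 and 16.8 FPKM in the knockdown. Npat was at 13.3 and 12.4 FPKM against 13.5 and 11.2 FPKM, and Casp8ap2 (FLASH), its partner in the histone locus body, at 36.1 and 37.1 FPKM against 35.9 and 41.9 FPKM. Eri1, the exonuclease that trims the stem-loop end, was at 10.3 and 9.08 FPKM against 12.3 and 11.5 FPKM. Lsm10, Lsm11 and Zfp473, parts of or partners to the U7 particle, were below the filter, and Rnu7 itself was listed at 0. The smallest p was that of Snrpb, an Sm core protein of spliceosomal particles and of the U7 particle, at 61.8 and 64.4 FPKM against 78.8 and 92.7 FPKM (log2 fold change 0.43, SE 0.14, limma adjusted p = 0.532). Zcchc11, which adds uridines to RNA ends, was at 4.49 and 4.92 FPKM against 2.91 and 3.28 FPKM. E2f1 was at 5.48 and 6.74 FPKM against 8.79 and 7.87 FPKM, and Ncbp1, of the cap-binding complex, at 72.4 and 71.7 FPKM against 83.9 and 84.7 FPKM. In 9 of the 27 genes, these among them, both knockdown libraries lay above both controls, where 21.8% of all rows did. In 2 both lay below, where 18.9% did.

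Of 27 listed genes of S phase and DNA replication 26 were tested. They split 9 lower and 17 higher, with a median of 0.05, where 46.8% of all rows were lower. Mcm5, a subunit of the replicative helicase, was at 24.7 and 26.8 FPKM in the controls and 14.0 and 15.1 FPKM in the knockdown (log2 fold change -0.78, SE 0.15, unadjusted p = 0.00266, limma adjusted p = 0.462). Mcm2, of the same helicase, was at 21.5 and 19.2 FPKM against 16.1 and 15.9 FPKM. All 18 histone chaperones and carriers were tested, 5 lower and 13 higher, with a median of 0.13, against the same 46.8% of all rows lower. Npm2, the egg nucleoplasmin, was at 17.9 and 17.9 FPKM against 25.1 and 21.8 FPKM, and Daxx, a chaperone of the H3.3 variant, at 9.18 and 10.8 FPKM against 16.7 and 12.4 FPKM. None of these lists held a called gene.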

How the data were processed

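The values are FPKM per gene, as deposited by the authors in 1 table with 49585 rows and a column for each of the 4 libraries. Per the submitters' processing notes, mm10 was the build and the tools included HISAT2 2.2.1, SAMtools 1.4.1, featureCounts and Trim Galore 0.6.7. Which step used which tool, the gene models, the strand option and the treatment of reads that fit several histone copies were not given in the sources used here, so near-identical copies are uncertain. Sample titles gave the groups and the replicate numbers.

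The 12120 rows whose mean reached 1 FPKM were tested on log2(FPKM + 1) with limma 3.58.1 in R 4.3.3, with group alone and a mean-variance trend. p was adjusted after Benjamini-Hochberg over all rows tested, with a threshold of 0.05. Fold changes on this scale understate the change of low genes. Fragments were recovered as whole multiples of each gene's FPKM step, within 0.02 fragments, in 61 of 61 histone genes above 0. Of the 59 tested, 57 had at least 300 fragments in every library, and the range was 5 to 19369. A recovered count and length can be understated by a common factor, and PCR copies are not independent molecules. Both steps were tested on simulated data. There limma called 84.8% of the log2 changes of size 3 and 18.8% of those of size 1. The mean number of false calls was 3.2. Changes smaller than 1, the size of most histone log2 fold changes here, were not tested. A histone gene that was not called is therefore not shown to be unchanged. All counts were recovered exactly for 91.7% of 300 genes.

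The members and the gene lists were chosen with earlier results of these data known. The genes named are Yy1, the 4 highest of each histone type and the 3 with the smallest p, fixed genes of the histone message list (Slbp, Npat, Casp8ap2, Lsm10, Lsm11, Zfp473 and Eri1) with up to 4 others, the 2 with the smallest p of each other list, and Hist1h2aa and Hist1h2ba. Further names, such as those of copies, head-to-head pairs, genes outside the Hist1 cluster and genes with groups that do not overlap, were added after values were seen. Promoter windows and coordinates are from RefSeq (GRCm38.p6). A planned comparison of protein sequences was not made. Alternatives were leaving out each library, a replicate block, a pseudocount of 0.1, a filter of 5 FPKM or none, quantile normalization, median-ratio scaling and other moderation. Equal replicate numbers were not taken to pair the libraries, since the labels do not say so. The correlation between the groups of the deviations of replicate 1 was 0.0994 across all 12120 rows and 0.0422 across the 59 histone genes. Replicate 1 was above replicate 2 in both groups for 43 of these 59 genes, against 27.3% of all rows. These values do not settle whether the libraries are paired.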

Additional observations from a re-analysis of the deposited data

How the results depend on the processing

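No histone gene was called by limma under any alternative run. The count at an unadjusted p under 0.05 and lower was 2 with quantile normalization, 4 with the replicate block and 0 without a trend. The count higher was 1 with a pseudocount of 0.1. Over all rows tested, 4 genes were called with a filter of 5 FPKM and 1 with robust moderation, with Yy1 among them in both (-3.26) and Zfp42 with the filter (-2.47). The block changed no other call, and no pairing of the libraries was taken from it. Histone genes with every knockdown library below every control were also counted with each library left out in turn, an alternative chosen after seeing the data. They numbered 15 to 50 of 59 (25.4% to 84.7%), with 50 without control replicate 2 and 28 without knockdown replicate 1. Over all rows tested the share was then 30% to 36.2%, against 18.9% with all 4 libraries. By type the counts were 0 to 5 for H1, 4 to 12 for H2A, 9 to 14 for H2B, 0 to 10 for H3 and 1 to 9 for H4. With a library left out, the histone genes lower numbered 21 to 53 in all, where 44.3% to 50.3% of all rows were lower. By type they numbered 1 to 5 for H1, 5 to 14 for H2A, 10 to 14 for H2B, 1 to 10 for H3 and 2 to 10 for H4. The median log2 fold change ran from -0.36 to 0.11 in all, -0.31 to 0.13 for H1, -0.44 to 0.07 for H2A, -0.36 to -0.08 for H2B, -0.29 to 0.22 for H3, -0.32 to 0.15 for H4. The ratio of summed FPKM ran from 0.758 to 1.04 in all, 0.775 to 1.06 for H1, 0.728 to 1.05 for H2A, 0.777 to 0.932 for H2B, 0.788 to 1.17 for H3, 0.796 to 1.1 for H4. The highest value of each median and each ratio came without control replicate 1, except for the median of H4, where it came without knockdown replicate 2. Of 55 single genes with a fit, these changed sign with a library left out, with their log2 fold changes: Hist1h1d -0.40 to 0.21, Hist1h1e -0.62 to 0.04, Hist1h1c -0.27 to 0.26, Hist1h1b -0.36 to 0.01, Hist1h2ah -0.43 to 0.0019, Hist1h2ai -0.50 to 0.18, Hist1h2ao -0.76 to 0.12, Hist1h2ap -0.75 to 0.13, Hist1h2bn -0.40 to 0.11, Hist1h3i -0.24 to 0.27, Hist1h3h -0.32 to 0.21, Hist1h3b -0.45 to 0.11, Hist1h3g -0.26 to 0.41, Hist1h3d -0.80 to 0.02, Hist1h3e -0.48 to 0.18, Hist1h4d -0.53 to 0.11, Hist1h4n -0.18 to 0.28, Hist1h4k -0.63 to 0.13, Hist1h4b -0.25 to 0.22, Npat -0.18 to 0.06, Casp8ap2 -0.03 to 0.19, Odf2 -0.27 to 0.42, Terc -0.79 to 0.11. Hist1h3i also changed sign with median-ratio scaling (-0.01) and quantile normalization (-0.07), and Hist1h4n with the latter (-0.04). Where it is not the removal of a library, the cause was not tested. With 2 libraries a group, leaving one out leaves a lone library that is assumed to vary like the others, and the number of libraries limits these results. The planned comparison of protein sequences was not run.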
